A study of Mus musculus with 2 samples.

Results

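The 6 genes studied encode microtubule-associated proteins (MAPs): Map1a, Map1b, Map2, Map4, Map6 and Mapt. Their C-to-U editing was examined in nuclear RNA of the mouse cortex. All rows of the deposited site list that carry any of these 6 gene names were taken, which gave 42 of the 17755 sites in 6 of the 6929 genes. The list comes from 2 libraries of a single group. Both were made from cortical nuclei of APOBEC1-YTH mice given tamoxifen at 20 mg/kg every 24 hours for 5 days from the age of 10 weeks, with tissue collected 7 days after the final dose, and the nuclei were fixed in 50% ethanol, stained for the neuronal nuclear protein NeuN and flow-sorted. APOBEC1-YTH joins the cytidine deaminase APOBEC1 to the YTH domain, which recognises N6-methyladenosine (m6A) in RNA, so that a cytidine converted close to a modified adenosine marks m6A. The promoter and cell types that drive the fusion, and whether a library stands for a single animal, are not stated in the sources used here. No group without the fusion and no nuclei negative for NeuN were analysed here, so the comparisons are among genes and positions of the list.

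Microtubules are hollow polymers of tubulin that carry transport along axons and dendrites, and MAPs bind along them and set their stability, spacing and bundling. Map2, Mapt (which encodes tau) and Map4 belong to one family that binds microtubules through related repeats near the carboxyl terminus; Map2 protein is known for its place in dendrites and the cell body, tau for its place in axons, and Map4 for its broad expression outside neurons. Map1a and Map1b form a second family, whose proteins are made as polyproteins and cut into a heavy and a light chain; Map1b is abundant in growing axons and Map1a in mature dendrites. Map6, also called STOP, encodes a protein that protects microtubules from cold-induced disassembly.

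The editing level, the share of reads at a site that show the conversion, is given once per site for both libraries combined. The lowest level in the list was 1%. Without coverage or values per library no counting interval for a level and no replicate error could be given, and the depth is unknown. The intervals below are exact binomial 95% intervals over sites or genes and cover counting error only. Sites of a gene share a transcript and are not replicates. Of the markers used to check the sort, 8 of 20 pan-neuronal genes had a site (16 sites in all), against 30 of 40 glial and vascular genes (295 sites). The interval for the neuronal share, 19.1% to 64.0%, included the 28.2% found over all protein-coding genes. That for the glial and vascular share, 58.8% to 87.3%, lay above it. By these counts the check did not show a list enriched in neuronal over glial and vascular markers. The shares were not matched for gene length or expression. Rbfox3, which encodes NeuN, and the neuronal tubulin gene Tubb3 were among the 12 neuronal markers with 0 sites, and Gfap, Apoe, Aldoc, P2ry12 and Aif1 were among the 10 glial and vascular markers with 0. Celf4 and Syt1 led the neuronal markers with 4 sites each, at median levels of 12.4% and 11.7%. Aqp4, Slc1a2 and Gja1 led the glial and vascular markers with 45, 38 and 33 sites, at median levels of 2.73%, 1.43% and 1.96%. Over the markers with a site, the median of the gene medians was 6.68% for neuronal genes and 1.97% for glial and vascular genes. At least 5 sites were found in 0 of the 8 neuronal genes and in 18 of the 30 glial and vascular genes. Over the whole list, 937 of the 6929 genes had that many. Over the whole list the median of the gene medians was 4.70%, and 2.74% over genes with at least 5 sites. The part of site number in the difference between the markers was not tested. Map4 and other MAP genes are not restricted to neurons, and the part of non-neuronal nuclei in the MAP sites was not tested.

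All 6 MAP genes had at least 1 site, whereas 28.2% of the 21900 protein-coding genes in the RefSeq table of GRCm38.p6 did. Longer genes have more room for sites. Among the 9028 protein-coding genes whose spans lie within the range of the MAP genes, from 21.2 kb for Map1a to 267.4 kb for Map2, the share was 41.2%. At least 5 sites were found in 5 of the 6 MAP genes and in 4.2% of protein-coding genes. The 6 genes were selected with the list already known, so these shares describe them and carry no test. Map1b held 18 of the 42 sites and Map1a 7. Map4 held 6, Map2 and Mapt 5 each, and Map6 held 1. Only 32 genes of the whole list had more sites than Map1b, against 349 for Map1a, 477 for Map4, 665 for Map2 and Mapt, and 3521 for Map6. Per 10 kb of span the order was different: Map1a came first with 3.30 sites, before Map1b with 1.89, Mapt with 0.487, Map4 with 0.389, Map2 with 0.187 and Map6 with 0.142.

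Over all 42 sites the levels lay close to those of the whole list. The median was 3.70% (95% interval 2.59% to 5.56%), against 3.64% (3.57% to 3.70%) over the 17713 sites of all other genes, and the quartiles were 2.25% and 6.16%, against 2.01% and 6.90%. A level of 10% or more was found at 6 of the 42 MAP sites (14.3%, 5.43% to 28.5%), beside 14.9% of all sites in the list. All 6 belonged to Map1b, where they made up 33.3% of the sites (13.3% to 59.0%). The other 5 genes had 0 of 24 sites at that level, for which the exact interval reaches 14.2% (a limit of 3 counts in 24 would be 12.5%). Without Map1b the median of the remaining 24 sites was 3.32% (2.06% to 5.41%).

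**Figure D1:**
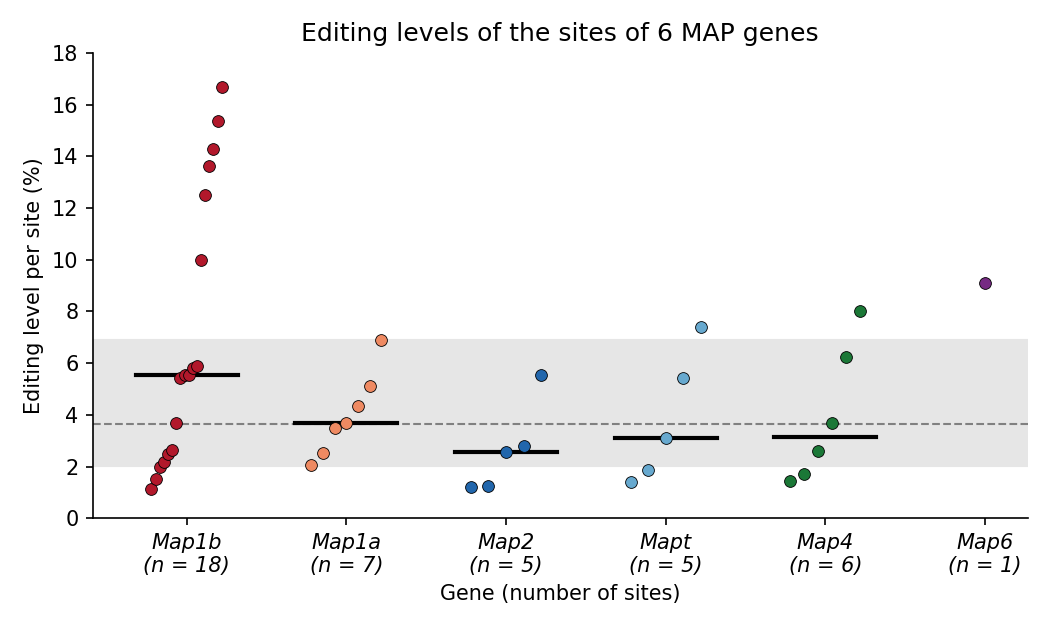
Editing level of each site (points, vertical axis in percent) for the 6 MAP genes, with the median of each gene that has more than 1 site as a black bar; the grey band spans the quartiles (2.01% and 6.90%) and the dashed line the median (3.64%) of the sites of all other genes. Only Map1b has sites at or above 10%, and its 18 sites run from 1.15% to 16.7%.

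Map1b (chromosome 13, 99421464 to 99516602, minus strand, mm10) had the most sites of the 6 genes and all of their sites at 10% or more. Its 18 sites had a median level of 5.56% and a mean of 7.02% ± 5.27 (SD across sites). The lowest was 1.15% and the highest 16.7%. Among the 57 genes of the list with at least 15 sites, the median of the gene medians was 2.31%, and 1 gene had a higher median than Map1b. The 57 genes had a median of 1 site at or above 10%, whereas Map1b had 6. Of the others, 1 gene had more and 1 had the same number. Read depth at these sites is not given, and its part in the high levels was not tested. Among all 937 genes with at least 5 sites, 88.4% had a lower median than Map1b.

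The sites of Map1b lay in the terminal part of the gene and their levels were higher towards its 3′ end. All 18 fell in a stretch of 19810 bases, 20.8% of the span, that began 475 bases from the 3′ end. The 6 sites within 3 kb of the end were at 10.0%, 5.56%, 14.3%, 15.4%, 12.5% and 16.7%, in order of distance from the end, with a median of 13.4%. A group of 4 sites followed between 3993 and 4148 bases, at 2.63%, 2.47%, 5.80% and 13.6%. Beyond a gap of 4004 bases, 3 sites at 8152, 8271 and 8742 bases from the end were at 5.41%, 3.70% and 5.56%. The 5 sites at 10791 bases or more were at 2.00%, 1.15%, 1.53%, 2.17% and 5.88%. Thus 5 of the 6 sites nearest the end were at 10% or more, and 0 of the 8 sites beyond 5 kb were, the highest of which was 5.88%. The highest level of the whole set, 16.7%, was at position 99424379 and the next, 15.4%, at 99423728.

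Across the 18 Map1b sites, level and distance to the 3′ end had a Spearman rank correlation of -0.62. The points share one transcript and the same unknown coverage profile. Within the 10 sites of the last 5 kb it was -0.16, so the relation rests on the contrast between the last 5 kb and the 8 sites beyond it. The same measure was negative in 42 of the 57 genes with at least 15 sites, with a median of -0.23 and quartiles of -0.53 and 0.016, and 9 genes had a lower value than Map1b. A low level can be called only at high coverage. How coverage changes along Map1b is not in the table, and its part in the pattern was not tested.

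Sites within 100 nt of each other were found in Map1b and in none of the other 5 genes. Of the 18 Map1b sites, 8 had another site within 100 nt (44.4%, 21.5% to 69.2%). Of the sites of the other 5 genes, 0 of 24 did (exact interval up to 14.2%), and over all sites inside gene spans the share was 23.3%. That 23.3% includes genes with a single site, which can have no neighbour. The share over genes with as many sites as Map1b was not computed. The closest pair, at positions 99425508 and 99425531, was 23 nt apart, with levels of 2.47% and 5.80%. The group of 4 sites around it covered levels from 2.47% at 99425508 to 13.6% at 99425612. Another pair, at 99424290 and 99424379, was 89 nt apart and stood at 12.5% and 16.7%.

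Map1a (chromosome 2, 121289590 to 121310832, plus strand) had lower and more even levels. Its 7 sites were at 4.35%, 5.13%, 6.90%, 2.53%, 3.70%, 2.06% and 3.51%, in order from the 3′ end, with a mean of 4.03% ± 1.64 (SD across sites) and a median of 3.70%. All 7 were within 5912 bases of each other, 27.8% of the span. In contrast to Map1b, just 1 was in the last 5 kb of the gene: the closest site was 4808 bases from the end and the farthest 10719. In Map1b, 10 of the 18 sites lay closer to the end than the closest site of Map1a. The shortest gap between Map1a sites was 238 nt, between the sites at 6.90% and 5.13%. The 3′ end of Map1a overlaps the span of Ppip5k1, which runs from 121310557 to 121355653 and whose site in the list is on the minus strand, and 0 Map1a sites lay inside the overlap.

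**Figure D2:**
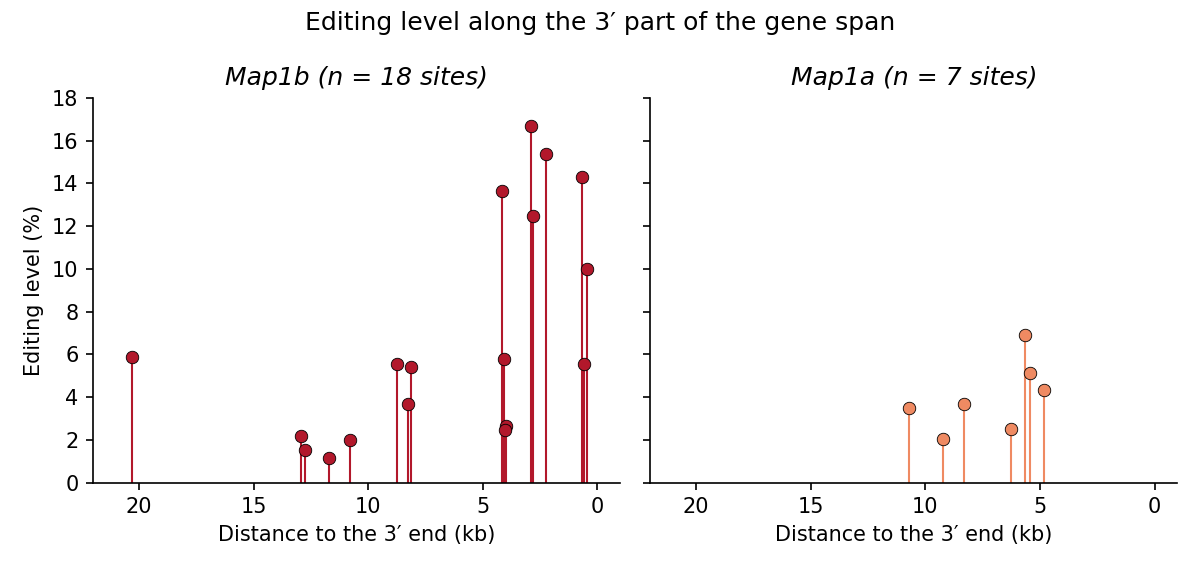
Editing level (vertical axis, percent) of each site of Map1b (left, 18 sites) and Map1a (right, 7 sites) against its distance to the 3′ end of the gene span in kb, with the end at the right of each panel. Levels above 10% occur in Map1b in the last 5 kb, while the Map1a sites lie between 4.81 and 10.7 kb from the end and reach 6.90%.

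The genes of the Map2, tau and Map4 family each had a group of 3 or 4 sites in the last 4 kb and others far upstream. In Map2 (chromosome 1, 66175202 to 66442583, plus strand) the 3 sites at 1954, 2073 and 3749 bases from the 3′ end were at 1.2%, 2.56% and 2.78%. The other 2 lay 27381 and 61891 bases from the end, at 5.56% and 1.26%. The highest level of Map2 was thus at position 66415202, well outside the terminal group. Map2 had the lowest median of the 5 genes with several sites, 2.56%, with a mean of 2.67% ± 1.77 (SD across sites). It was also the longest gene and had the fewest sites per length of these 5.

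Mapt (chromosome 11, 104229409 to 104332090, plus strand) had 4 sites in the last 5 kb, at 1536, 1923, 2048 and 3035 bases from the 3′ end. Their levels were 1.85%, 5.41%, 7.39% and 3.12%. The remaining site, 21793 bases from the end, was at 1.41%, the lowest of the gene. The mean was 3.84% ± 2.52 (SD across sites) and the median 3.12%. The 2 highest levels were at neighbouring sites 125 nt apart, at positions 104330042 and 104330167. In Map2 the neighbours at 2073 and 1954 bases from the end were 119 nt apart, at about the same distances from the gene end as this pair in Mapt, and were at 2.56% and 1.2%. Neither gene had a site closer to its end than 1536 bases.

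Map4 (chromosome 9, 109929841 to 110083954, plus strand) had sites along a larger part of its span, 48351 bases or 31.4%. The 3 terminal sites were at 1.44%, 2.59% and 8%, at 470, 1139 and 1766 bases from the 3′ end, so that the levels were higher with distance from the end. The other 3 were at 1.72%, 3.70% and 6.25%, at 19672, 31639 and 48820 bases. The mean was 3.95% ± 2.64 (SD across sites) and the median 3.15%.

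The site of Map4 at position 110052315, edited at 3.70%, lay 294 bases after a start that RefSeq lists inside the gene. RefSeq's promoter table for GRCm38.p6 gives 2 starts of Map4 on the plus strand, at 109931774 and 110052021. They are shown because the 6 sites divide between them: the site at 110035134 (6.25%) lies before the inner start and after the outer one, while the other 5 lie after both. The 250 bases before each start are given 5′ to 3′, with every CG dinucleotide in capitals.
Map4 outer start, chr9:109931524-109931773: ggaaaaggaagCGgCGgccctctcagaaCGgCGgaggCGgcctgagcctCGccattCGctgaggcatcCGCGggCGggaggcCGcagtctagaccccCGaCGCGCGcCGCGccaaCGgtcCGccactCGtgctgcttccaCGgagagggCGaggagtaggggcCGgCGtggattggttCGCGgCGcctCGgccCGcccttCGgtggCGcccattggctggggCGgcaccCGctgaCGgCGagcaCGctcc
Map4 inner start, chr9:110051771-110052020: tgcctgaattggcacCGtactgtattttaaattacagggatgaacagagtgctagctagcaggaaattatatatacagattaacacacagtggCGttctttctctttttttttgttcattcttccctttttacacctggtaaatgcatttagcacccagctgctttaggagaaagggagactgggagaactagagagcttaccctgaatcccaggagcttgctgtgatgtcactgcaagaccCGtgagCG
The window of the outer start holds 36 CG dinucleotides and is 74.0% G or C. That of the inner start holds 4 and is 43.6% G or C. Over the 32851 windows of the table the medians were 6 CG and 52.4% G or C, and 97.4% of windows had fewer CG than the outer start, against 37.8% for the inner one. The table has starts for 4 of the 6 genes, Map1a, Map1b, Map2 and Map4. Of the 36 sites in these, the one at 110052315 was the only site within 1 kb after a listed start (2.78%, 0.070% to 14.5%), against 10.0% (9.50% to 10.5%) of the 13412 sites of all genes with a listed start. These shares were not matched for gene length. Which start the edited RNA used was not tested.

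Map6 (chromosome 7, 99266779 to 99337137, plus strand) had a single site, at position 99320186. Its level of 9.09% was higher than that of each of the other 23 sites outside Map1b, but 6 of the Map1b sites exceeded it. It lay 16951 bases from the 3′ end and 53407 bases from the 5′ end. With 1 site nothing can be said of a spread.

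Taking the 6 genes as a set, 21 of the 42 sites were in the last 5 kb of the spans (50.0%, 34.2% to 65.8%), against 49.7% of the 16794 sites of all other genes. The genes differed from one another: 10 of 18 sites of Map1b were in that stretch, 4 of 5 of Mapt, 3 of 5 of Map2, 3 of 6 of Map4, 1 of 7 of Map1a and 0 of 1 of Map6. In the last 1 kb there were 4 sites, 3 of Map1b and 1 of Map4 (9.52% of 42), where the whole list had 16.1%. Between 1 and 5 kb there were 17 sites (40.5%, against 33.6%), between 5 and 20 kb 15 (35.7%, against 22.7%), and at 20 kb or more 6 (14.3%, against 27.6%). The median levels over these zones were 7.78%, 4.35%, 3.51% and 4.63% in the MAP genes, against 4.65%, 4.17%, 3.28% and 2.74% in all genes. No intervals were computed for these medians, and some rest mainly on Map1b and Map1a. Of the 15 MAP sites between 5 and 20 kb, Map1b held 7 and Map1a 6. Whether a site is in an exon, an intron or an untranslated region could not be read from a table of gene spans.

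**Figure D3:**
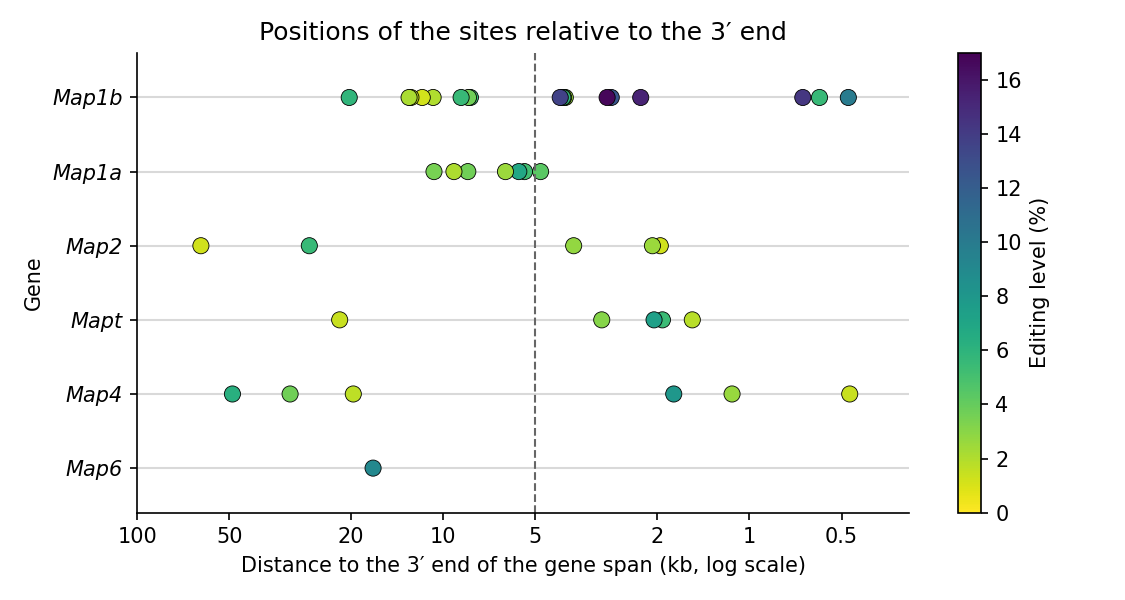
Distance of each of the 42 sites to the 3′ end of its gene span (horizontal axis in kb, log scale, with the end to the right), one row per gene and coloured by editing level in percent. The dashed line marks 5 kb, which 21 sites are closer than; the darkest points lie in the last 5 kb of Map1b.

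Genes with the same number of sites and the nearest median level were looked up as the closest counterparts in this single group. For Map1b only 2 other genes had 18 sites, the receptor genes Notch2 (median 3.64%) and Ntrk2 (2.44%), both lower than the 5.56% of Map1b. In the last 5 kb Notch2 had 13 of its 18 sites and Ntrk2 1, beside the 10 of Map1b. The rank correlation of level with distance to the 3′ end was -0.54 in Notch2 and 0.19 in Ntrk2, against -0.62 in Map1b. For Map1a the closest counterparts were Arhgef17 (3.70%), Adgrl3 (3.66%) and Cd164 (3.60%), of 127 candidates with 7 sites. Of the 7 sites of each, Cd164 had 7 in the last 5 kb and the other two genes had 0, beside the 1 of Map1a. For Map4 they were Lmtk3 (3.15%), Notch3 (3.16%) and Nbas (3.16%), of 187 with 6 sites. For Mapt they were Nipa1 (3.12%), Synm (3.08%) and Vldlr (3.08%), and for Map2 Spock1 (2.59%), Plekhg1 (2.53%) and Ubr3 (2.53%), of 270 with 5 sites. Nipa1 had 4 of 5 sites in the last 5 kb, as Mapt had. For Map6, 63 other genes had a sole site at the same 9.09%, and none is named.

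Other genes of the microtubule system were compared through 6 lists of 86 genes in all. A site was found in 55 of the 86 (64.0%, 52.9% to 74.0%), with 223 sites, beside 28.2% of all protein-coding genes. The shares were not matched for gene length or expression, and longer genes have more room for sites. The median of the gene medians was 3.39% over these 55 genes, against 4.70% over all genes of the list. It was 2.74% over the genes of the list with at least 5 sites, and the comparison was not matched for site number. The shares of the 6 lists ran from 40.0% to 100%, and differences between lists were not tested. Among genes of plus-end tracking proteins and cytolinkers, which ride on growing microtubule ends or tie microtubules to other filaments, 16 of 16 had a site (exact interval 79.4% to 100%). The cytolinker gene Dst led with 29 sites (mean level 2.50%), followed by Apc with 19 (2.16%) and the polymerase gene Ckap5 with 12 (4.21%). Of the genes for kinases and phosphatases that act on MAPs, 14 of 16 had a site (61.7% to 98.4%). The phosphatase catalytic subunit gene Ppp2ca had 14 sites (2.31%), all in the last 5 kb, the tau kinase gene Gsk3b 5 (3.43%) and Camk2a 4 (7.89%).

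The other 4 lists had shares of 40.0% to 53.8%, beside 28.2% of all protein-coding genes. Of 13 tubulin genes 6 had one (19.2% to 74.9%) and none had more than 3, among them Tuba4a (mean 8.73%), Tubb4b (4.10%) and Tubb2b (2.34%) with 3 each. Tubulin genes are near-identical in parts, so reads can be shared among them and these assignments are uncertain. Among 13 tubulin-modifying enzyme genes 7 had a site, led by the tubulin tyrosine ligase gene Ttl (3 sites, mean 10.8%), Ttll7 (3, 3.78%) and Agtpbp1 (2, 2.95%). Among 13 genes of minus-end binding, severing and destabilizing proteins 6 had a site, led by Camsap2 (5, 6.20%), Camsap1 (4, 3.94%) and the severing gene Spast (4, 3.92%). Of 15 other structural MAP genes 6 had a site (40.0%, 16.3% to 67.7%), led by the doublecortin-like kinase gene Dclk1 (9, 3.82%), Map1lc3b (7, 4.15%) and Dclk2 (4, 8.67%). Map1s, the third member of the MAP1 family, Map6d1, which is related to Map6, and Dcx were among the 9 with 0 sites. In 11 of the 86 genes there were at least 5 sites, beside 4.2% of all protein-coding genes. Among genes with a site these were 11 of 55, beside 937 of the 6929 genes of the list. These counts were not matched for gene length. No expression values or depth are at hand. A gene without a site may lack the RNA, the modification or enough reads, among other reasons, and these cannot be told apart.

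**Figure D4:**
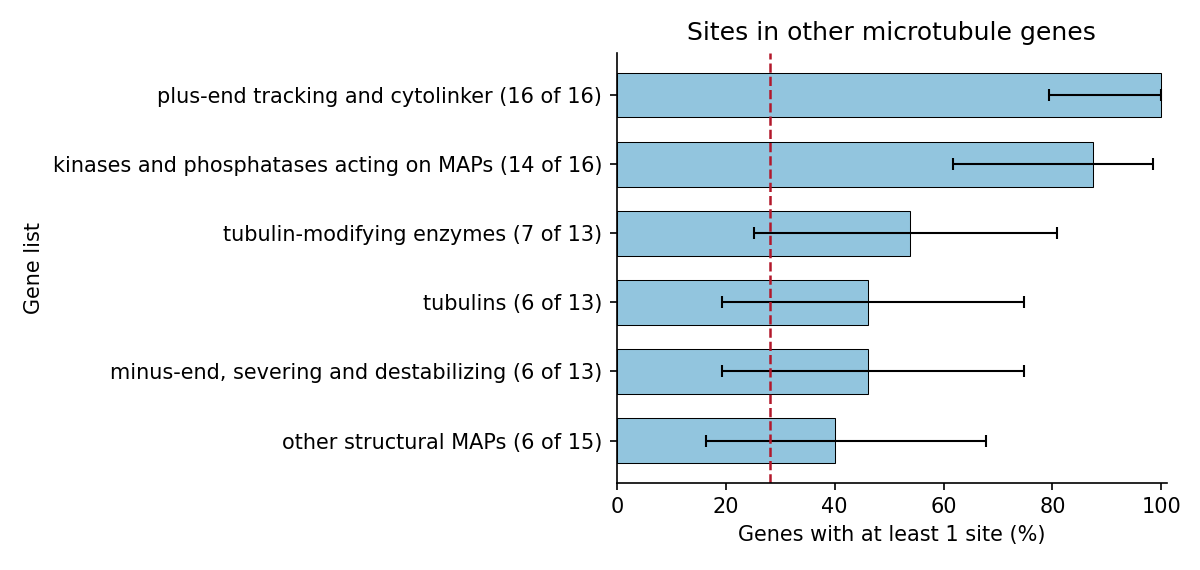
Share of genes with at least 1 site (bars, percent) in 6 lists of other microtubule genes, with exact 95% intervals and the counts beside each name; the dashed line is the share of all protein-coding genes, 28.2%. Plus-end and cytolinker genes reach 16 of 16, and the other structural MAP genes have the lowest share, 40.0%. The shares are not matched for gene length.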

How the data were processed

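The authors deposited 1 list for 2 libraries of a single group, with chromosome, position, gene, strand and an editing level per site as a fraction from 0 to 1, printed here in percent. Per the labels, a stranded kit for small amounts of total RNA was used, although another label field names polyA RNA. Per the labels' series text, sites of C-to-U conversion were called with Bullseye. The submitters' processing notes name STAR 2.7.5 and the build mm10. Bullseye's settings and control, any coverage minimum and how both libraries were merged are not stated in the sources used here. There are no values per library, no coverage and no depth, so results are descriptions without tests between groups.

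Rows were selected by gene name with Python 3.11.15, pandas 2.3.3 and scipy 1.17.1. Positions are 1-based. Spans came from RefSeq's genes of GRCm38.p6, which is mm10; symbols listed more than once in it were left out. All 42 MAP sites lay inside their spans, and 16836 sites of the list lay inside a span. The strand was the one listed. Distances were counted to the 3′ end of the span, sites under 5 kb being in the last 5 kb. Intervals of medians came from order statistics. Distances to the 3′ end, distances between sites, the rank correlation and the interval of a median were checked on simulated data. The other measures were not. The share of sites with an A before the edited C needs a genome and was not run. The 6 genes, the lists and the measures were chosen with earlier results of these data known. The named genes were all 6 MAP genes, up to 3 genes per list with the most sites, and up to 3 genes of equal site number with the nearest median; Map1s, Map6d1, Dcx and the markers named with 0 sites were picked out after their values were seen. Minimum levels, windows, distances and the omission of Map1b were tried as alternatives.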

Additional observations from a re-analysis of the deposited data

How the results depend on the processing

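With a minimum level of 5%, 19 of the 42 MAP sites were left, their median was 6.90% against 3.70%, and 38.4% of the other microtubule genes had a site, against 64.0%. With at least 2 sites required, that share was 47.7%. The share of MAP sites near the 3′ end was 21.4% in the last 2 kb and 69.1% in the last 10 kb, against 50.0% in the last 5 kb. The share with a neighbour was 4.76% within 50 nt and 40.5% within 200 nt, against 19.1% within 100 nt. These shifts follow from the minimum, window or distance itself. The rank correlation of level with distance in Map1b was -0.33 over the 11 sites at 5% or more and -0.16 over the 10 sites of the last 5 kb, against -0.62; the cause was not tested. The alternatives for this correlation were chosen after seeing the data. Of 23 alternatives, 13 stayed within the interval of the reported value (counts within 1.5 times, the correlation within 0.2), 10 moved further and 0 reversed. No paired analysis was possible because there is a single group and no values per library; leaving out a library could not be done for the same reason.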

Other observations

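Sites assigned to other genes lay inside or close to the MAP genes on the opposite strand. Within the span of Mapt, the list has a site of Gm11659 on the minus strand at chromosome 11, position 104253363, edited at 5%. Beyond the 3′ end of Map1a, it has a site of Ppip5k1 on the minus strand at chromosome 2, position 121312070, edited at 6.45%.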
